A study of Mus musculus with 18 samples.

Results

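The colony-stimulating factors M-CSF, GM-CSF and G-CSF and their receptors were followed in bone marrow-derived macrophages that lack the transcription factor Klf3 (KO) and in wild-type (WT) macrophages. The members were chosen by gene symbol: the ligand genes Csf1, Csf2 and Csf3 and the receptor genes Csf1r, Csf2ra, Csf2rb, Csf2rb2 and Csf3r. Of these 8 genes, 7 were measured, by 12 of the 45037 probe sets that are not controls, and they are 7 of 17097 genes in the gene table. Csf2ra is not analysed here.

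The cells came from marrow of 10 to 14 week-old male FVB/NJ mice and had grown for 7 to 10 days in medium with 20% conditioned medium of L929 cells, which carries M-CSF. That medium was then washed off and replaced by regular medium, so every group harvested at 8 h had been without added M-CSF for that time. The 6 groups of 3 arrays were KO and WT cells after 8 h with lipopolysaccharide (LPS, 100 ng/mL), KO and WT cells after 8 h with its vehicle, phosphate-buffered saline, and KO and WT cells taken at 0 h. How and in which cells Klf3 was disrupted is not stated in the labels, nor whether the 3 arrays of a group stem from different mice or cultures. The p-values therefore cover no more than the variation among these arrays, which may be technical.

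The colony-stimulating factors are secreted proteins that keep myeloid cells alive and direct their growth, differentiation and activation. M-CSF, the product of Csf1, acts through the receptor tyrosine kinase encoded by Csf1r, on which macrophages grown from marrow depend. GM-CSF (Csf2) binds an alpha chain encoded by Csf2ra together with the common beta chain encoded by Csf2rb, which the IL-3 and IL-5 receptors also use. Csf2rb2 encodes a second mouse beta chain that serves IL-3 only. G-CSF (Csf3) acts through the receptor encoded by Csf3r, best known from neutrophils and their precursors. The beta chains and the G-CSF receptor signal through Janus kinases and STAT proteins. LPS, a Gram-negative outer membrane component, is sensed by TLR4, and macrophages are known to make all 3 factors in response to it.

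Values are log2 intensity after quantile normalization of the arrays. They describe a probe set across arrays and do not rank 1 gene against another, because probe sets differ in brightness. A value is called above background when it exceeds the 95th percentile that 23 nonspecific controls reach in its own array, a level that ran from 3.71 to 4.54. Tests were limma's moderated test over all 18 arrays, two-sided, with p-values adjusted over the 17097 genes and a threshold of 0.05, and errors of differences are standard errors. In bulk RNA, fewer cells of a type and less RNA per cell cannot be told apart.

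Facts of the whole series that touch these genes are few. Of the 6 Klf3 probe sets, 3 had every KO array below every WT array in each condition. The brightest, 1454666_PM_at, which stands for the gene, differed by -2.28 after LPS (adjusted p = 0.000187), by -1.92 after vehicle (adjusted p = 0.0529) and by -1.18 at 0 h (adjusted p = 0.185). Probe set 1421604_PM_a_at was at least 10.5-fold lower in KO cells after LPS and at least 13.2-fold lower after vehicle, where no KO array was above background, and 1429360_PM_at differed by -2.87 after LPS, -2.21 after vehicle and -1.86 at 0 h. The other 3 passed the threshold over all probe sets in no condition, and 1431630_PM_a_at had its KO arrays above its WT arrays after vehicle (8.50 ± 0.27 in KO cells, against 7.20 ± 0.54 in WT cells, SD, n = 3 each) and at 0 h. All 12 macrophage markers, Csf1r among them, were above background in every array. After LPS, 4 of the other 11 (Fcgr1, Itgam, Mrc1 and Aif1) were lower and 0 higher in KO cells, against 3.15% and 2.82% of all genes. The summed intensity of the 11 was then 30570 to 32280 in KO cells, against 35170 to 38140 in WT cells, with no overlap. After vehicle it was 31430 to 32230 in KO cells, against 32240 to 32680 in WT cells. At 0 h it was 33620 to 34600 in KO cells, against 34430 to 35650 in WT cells. The part of the marker difference after LPS in the other results after LPS was not tested. The plate rows differ between the conditions, so an effect of the row cannot be told apart from treatment. Each of the 3 plate columns (5, 7 and 9) held 1 KO and 1 WT array of every condition, but in different rows. The KO array was in the upper of these rows in column 7 only, so genotype and row were partly tied. The difference between 5' and 3' Gapdh probe sets, a measure of RNA integrity, moved with treatment: it was -0.43 ± 0.05 and -0.36 ± 0.28 in KO and WT cells after LPS, -0.20 ± 0.09 and -0.17 ± 0.08 after vehicle, and 0.09 ± 0.08 and 0.14 ± 0.02 at 0 h (log2, mean ± SD, n = 3 each). Its part in the differences between treatments was not tested. The KO vehicle array of replicate 3 lay farther from its group mean (SD of 0.27 over probe sets) than the other KO vehicle arrays (at most 0.22). The 3 WT arrays after LPS lay farther still from theirs, at 0.28 to 0.34, and each KO against WT difference after LPS rests on them.

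Windows of 250 bases before the RefSeq gene start (GRCm38.p6) were matched by symbol to 5 of the 8 members: Csf1, Csf2, Csf2ra, Csf2rb2 and Csf3r. Those of Csf1 and Csf2 are shown because both genes were higher in KO cells after LPS, and that of Csf3r because it was lower there. Klf3 belongs to a family of zinc finger proteins that bind CACCC boxes, and NF-kB proteins, which LPS activates, bind kappaB sites, so these motifs were searched on both strands. Capitals mark CACCC, its reverse complement GGGTG, and kappaB matches, and no base belongs to both motifs. The windows are chr3:107760470-107760719 on the minus strand for Csf1, chr11:54249900-54250149 on the minus strand for Csf2 and chr4:126024409-126024658 on the plus strand for Csf3r, each written 5' to 3' on the strand of its gene.
Csf1: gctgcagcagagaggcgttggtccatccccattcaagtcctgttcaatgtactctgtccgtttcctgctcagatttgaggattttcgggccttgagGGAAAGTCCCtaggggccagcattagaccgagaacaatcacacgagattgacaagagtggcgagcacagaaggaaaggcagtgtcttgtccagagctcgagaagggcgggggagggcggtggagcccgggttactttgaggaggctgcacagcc
Csf2: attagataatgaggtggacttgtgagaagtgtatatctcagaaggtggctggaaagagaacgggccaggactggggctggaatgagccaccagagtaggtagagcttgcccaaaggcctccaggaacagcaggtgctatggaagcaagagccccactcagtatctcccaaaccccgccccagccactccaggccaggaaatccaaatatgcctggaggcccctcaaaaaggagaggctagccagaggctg
Csf3r: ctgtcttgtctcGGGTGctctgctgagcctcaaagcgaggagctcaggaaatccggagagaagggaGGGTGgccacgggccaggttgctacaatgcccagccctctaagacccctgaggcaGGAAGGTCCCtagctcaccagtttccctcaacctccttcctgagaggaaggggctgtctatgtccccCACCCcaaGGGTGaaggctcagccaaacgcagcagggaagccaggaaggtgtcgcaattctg

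The Csf1 window held 1 kappaB match, which starts 154 bases before the gene start, and no CACCC. The Csf2 window held neither motif. RefSeq's start of a gene is that of its outermost transcript, so this window need not hold the promoter used in these cells. The Csf3r window held 4 CACCC matches, starting 238, 184, 62 and 54 bases before the gene start, and 1 kappaB match at 129 bases. Among all 32851 windows, 52.0% held at least 1 CACCC on either strand, 2.14% held 4 or more, and 7.3% held a kappaB match. The Csf2rb2 window held 2 CACCC matches. A match describes letters only, and its absence says only that these letters are not in the window.

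After LPS, the ligand genes Csf2, Csf1 and Csf3 were all higher in KO than in WT cells by the brightest probe set of each gene, and the G-CSF receptor gene Csf3r was lower. Of the 7 measured members, 3 rose and 1 fell in this comparison, where 2.82% of all 17097 genes were higher and 3.15% lower in KO cells. Their values in every array are plotted for the ligand genes.

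Csf2, the gene of GM-CSF, had 8.91, 9.72 and 9.10 in KO cells after LPS, against 3.33, 2.72 and 3.16 in WT cells after LPS. Only the 3 KO arrays after LPS were above background, and in the other 15 arrays Csf2 had between 2.69 and 3.33. The probe set therefore gave no measured LPS response in WT cells, for which no difference is printed. Between genotypes after LPS the log2 difference was 6.18 ± 0.19 (adjusted p = 9.39e-12), or at least 34.2-fold against the background level. In KO cells LPS raised Csf2 by 6.47 ± 0.19 over vehicle (adjusted p = 1.12e-12), at least 40.8-fold.

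Csf1, the gene of M-CSF, had 7.96, 8.81 and 8.61 in KO cells after LPS, against 6.64, 5.75 and 6.55 in WT cells after LPS (probe set 1460220_PM_a_at, the brightest of 4). After vehicle it had 4.82, 4.73 and 5.28 in KO cells, against 5.26, 5.16 and 5.10 in WT cells. At 0 h it had 5.01, 4.89 and 5.28 in KO cells, against 5.63, 5.60 and 5.26 in WT cells. The genotypes did not overlap after LPS and overlapped after vehicle and at 0 h, and in both genotypes every LPS array was above every vehicle array. LPS raised Csf1 11.5-fold in KO cells (log2 difference 3.52 ± 0.24, adjusted p = 8.74e-09) and by 1.14 ± 0.24 on the log2 scale in WT cells (adjusted p = 0.0013). After LPS it was 4.43-fold higher in KO than in WT cells (2.15 ± 0.24, adjusted p = 6.19e-05).

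Csf3, the gene of G-CSF, had 7.88, 7.48 and 7.98 in KO cells after LPS, against 5.17, 4.33 and 6.26 in WT cells after LPS. After vehicle it had 3.53, 3.33 and 3.32 in KO cells, against 3.48, 3.39 and 3.81 in WT cells. All 6 LPS arrays were above background, whereas after vehicle 1 WT array was and no KO array, and no array was at 0 h. The WT arrays after LPS were spread the widest of any Csf3 group (SD of 0.97, against 0.26 in KO cells after LPS). LPS raised Csf3 by 4.38 ± 0.31 in KO cells (adjusted p = 1.36e-08, at least 14.8-fold) and by 1.69 ± 0.31 in WT cells (adjusted p = 0.000423). After LPS the log2 difference between genotypes was 2.52 ± 0.31 (adjusted p = 0.000144), a fold of 5.75. Fitted on those 2 groups alone, this difference kept its size and missed the threshold (adjusted p = 0.0644).

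**Figure D1:**
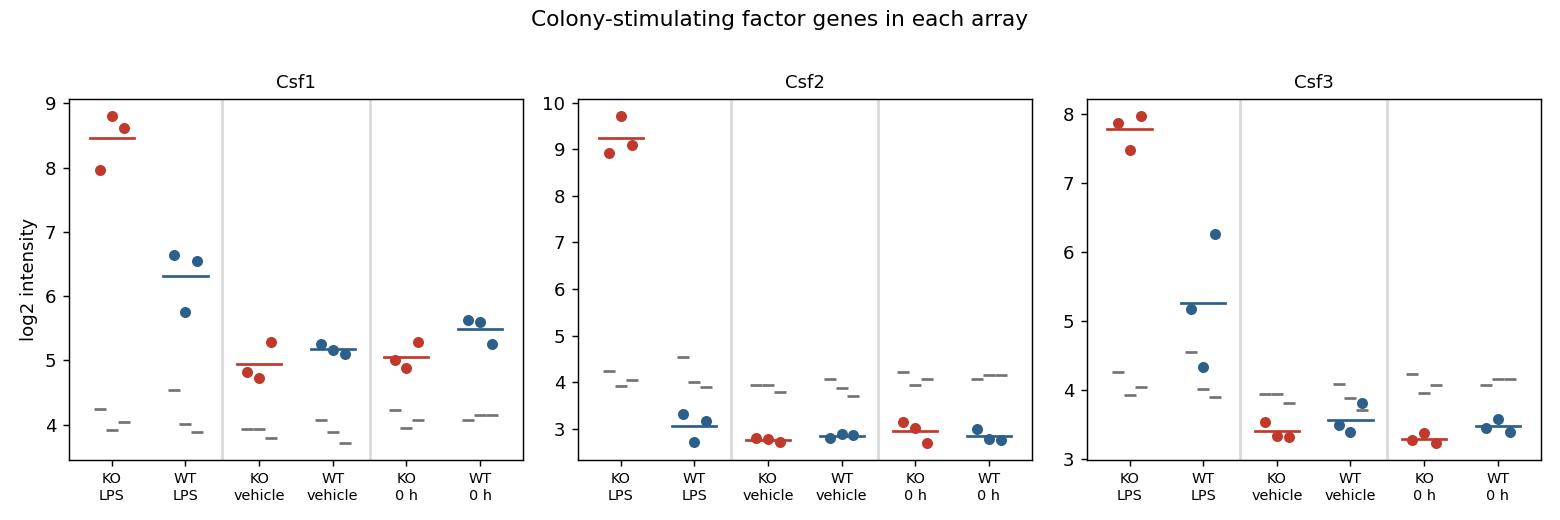
Log2 intensity (vertical axis) of Csf1, Csf2 and Csf3 in each of the 18 arrays, by group (horizontal axis). Points are arrays, coloured bars are group means and grey dashes are each array's background level. The KO arrays after LPS are the highest of each gene, with means of 8.46 for Csf1, 9.24 for Csf2 and 7.78 for Csf3, and Csf2 is above background in those 3 arrays only.

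Within plate columns 5, 7 and 9, each of which pairs 1 KO with 1 WT array after LPS, Csf2 was higher in KO cells by 6.40, 5.75 and 6.38, Csf1 by 2.17, 1.41 and 2.86, and Csf3 by 2.31, 1.61 and 3.65 (log2). By the brightest probe set of each of the 3 ligand genes, every KO array after LPS was above every WT array. Any pairing of the arrays therefore gives this direction for those probe sets. It does not for Csf1 probe sets 1425154_PM_a_at, which overlapped, and 1425155_PM_x_at, whose KO arrays were lower. With 3 arrays a group such a separation can also arise by chance, and its share over all genes is not given here. Column 7, the only one with its KO array in the upper row, gave the smallest difference for each gene. The part of the row was not tested.

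The difference between the LPS responses was tested directly as an interaction. All 3 ligand genes responded more strongly in KO than in WT cells, while none of the 4 receptor genes passed, against 0.515% of all genes with a larger and 0.591% with a smaller response in KO cells. The response was larger by 6.26 ± 0.27 for Csf2 (adjusted p = 1.72e-09), by 2.37 ± 0.34 for Csf1 (adjusted p = 0.002) and by 2.69 ± 0.44 for Csf3 (adjusted p = 0.00505). The Csf2 value takes the WT response as fitted, although both WT groups were below background. For Csf3 the call did not hold without KO replicate 3 (2.55, adjusted p = 0.0597).

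The 4 probe sets of Csf1 disagreed on the genotype. Probe set 1448914_PM_a_at, like the brightest one, was higher in KO cells after LPS, with 6.38, 7.73 and 7.26 in KO arrays, against 5.48, 4.55 and 4.74 in WT arrays (difference 2.21 ± 0.35, adjusted p = 0.00143 over all 45037 probe sets). Probe set 1425154_PM_a_at had 5.51, 5.16 and 5.53 in KO arrays, against 5.91, 5.21 and 4.80 in WT arrays, which overlap. Its difference was 0.09 ± 0.26, with a 95% interval of -0.45 to 0.64 (adjusted p = 0.911), an interval that leaves out the difference of the first 2 probe sets.

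Probe set 1425155_PM_x_at had 4.12, 4.87 and 5.04 in KO arrays, against 5.96, 5.28 and 5.44 in WT arrays, so the KO arrays were the lower ones. Its difference was -0.88 ± 0.29 (adjusted p = 0.107), and its suffix x marks probes that may also bind other transcripts. All 4 rose with LPS in both genotypes. The first 2, in the order in which they are plotted, rose by 3.52 and 3.74 in KO cells and by 1.14 and 1.03 in WT cells. Probe set 1425154_PM_a_at rose by 1.59 in KO cells and at least 2.67-fold in WT cells, whose vehicle arrays were all at background. Probe set 1425155_PM_x_at, at background in every vehicle array, rose at least 1.72-fold in KO cells and at least 3.18-fold in WT cells. The interaction was past the threshold for the first 2 (2.37 and 2.71) and not for the others (-0.15 ± 0.36 and -0.61 ± 0.40), whose fitted values rest on those background signals. Those of 1448914_PM_a_at rest partly on background too. After vehicle it was above background in 1 of 3 KO and 2 of 3 WT arrays. Per the probe annotation the first 2 were designed on 1 sequence record and the last 2 on another. With all 4 averaged, Csf1 was higher by 0.89 in KO cells after LPS and the interaction, 1.08, no longer passed (adjusted p = 0.0898).

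**Figure D2:**
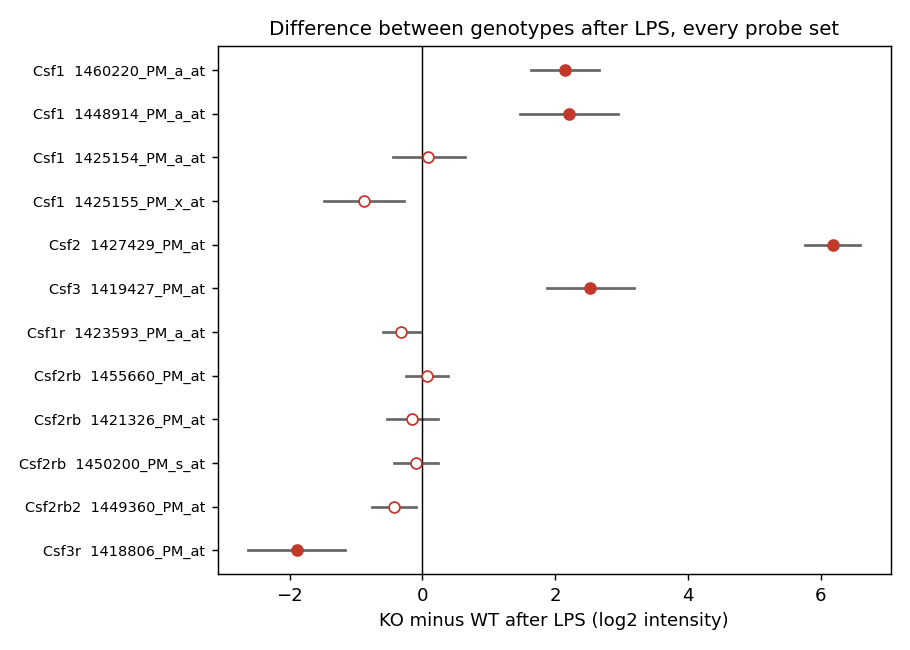
Log2 difference between KO and WT cells after LPS (horizontal axis) for each of the 12 probe sets of the 7 measured genes (vertical axis), with 95% intervals as lines. Filled points passed the threshold over all probe sets and open points did not. The first 2 Csf1 probe sets lie at 2.15 and 2.21 and the other two at 0.09 and -0.88, while Csf3r alone passes on the lower side, at -1.89.

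Csf3r, the G-CSF receptor gene, differed in the opposite direction to its ligand gene. It had 7.47, 6.74 and 6.74 in KO cells after LPS, against 9.17, 8.91 and 8.54 in WT cells after LPS, and the groups did not overlap. It was 3.71-fold lower in KO cells (-1.89 ± 0.35, adjusted p = 0.00356), with differences of -2.43, -1.07 and -2.17 within plate columns 5, 7 and 9. Csf3r stayed lower in KO cells after LPS and past the threshold in each of the 18 alternative settings run.

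After vehicle Csf3r had 8.07, 8.12 and 6.45 in KO cells, against 8.47, 8.18 and 8.58 in WT cells, and at 0 h it had 5.84, 6.54 and 6.40 in KO cells, against 6.83, 6.92 and 6.77 in WT cells. Every KO array was below every WT array in both conditions, but neither difference passed the adjusted threshold (-0.87 ± 0.35 after vehicle, adjusted p = 1, and -0.58 ± 0.35 at 0 h, adjusted p = 0.962). The change with LPS missed the threshold in KO cells (-0.56 ± 0.35, adjusted p = 0.245) and in WT cells (0.46 ± 0.35, adjusted p = 0.367), as did their difference (-1.03 ± 0.49, adjusted p = 0.424). The difference after vehicle, the change with LPS in KO cells and the difference between responses rest partly on the KO vehicle array of replicate 3, the one at 6.45. Without it, an alternative chosen after seeing the data, the Csf3r change with LPS in KO cells was -1.12 (adjusted p = 0.00218) and the difference between responses was -1.58 (adjusted p = 0.0281). The difference between genotypes after vehicle was then -0.31 (adjusted p = 1).

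Because Csf3r also marks neutrophils and their precursors, the other markers of those cells are given. Of 12 list entries 10 were measured. Besides Csf3r, Mmp8 was above background in all 18 arrays (up to 8.78), S100a8 in 12 (up to 9.20), Camp in 6 (up to 8.31) and Ngp in 1, while S100a9, Mpo, Elane, Ctsg and Ltf were in none. The summed intensity of the list without Csf3r was 540.7 to 716.2 in KO cells after LPS, against 564.9 to 904.3 in WT cells after LPS, ranges that overlap. After vehicle this sum was 468.1 to 530.5 in KO cells, against 297.6 to 400.8 in WT cells. At 0 h it was 236.1 to 353.2 in KO cells, against 146 to 156.8 in WT cells. In both of these conditions the KO arrays were the higher ones, with no overlap. Among the 9 measured without Csf3r, Mmp8 was higher and S100a8 lower in KO cells after LPS, and Mmp8 was also higher at 0 h. The part of this list in the Csf3r difference was not tested.

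T cells, NK cells and stromal cells can also make colony-stimulating factors. Of 8 measured T and NK cell markers, Cd3e was above background in 17 arrays (4.12 to 5.29), Cd4 in 3 and Cd8a in 1, and Cd3g, Cd3d, Nkg7, Gzma and Klrb1c in none. Their summed intensity was 72.6 to 98.43 in KO cells after LPS, against 75.04 to 94.29 in WT cells after LPS. That of 7 stromal markers, of which Pdgfrb was above background in 16 arrays and the other 6 in none, was 71.23 to 89.57 in KO cells after LPS, against 65.34 to 80.56 in WT cells after LPS. Of 5 endothelial markers, Kdr (4.69 to 6.70) and Vwf (4.27 to 8.32) were above background in all 18 arrays. Pecam1 was in 1, and Cdh5 and Tie1 were in none. The summed intensity of the endothelial list was 175.1 to 210.6 in KO cells after LPS, against 75.05 to 206.8 in WT cells after LPS, and Vwf was higher in KO cells there. The part of these lists in the ligand differences was not tested.

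The receptor genes of M-CSF and of the beta chains were bright in every array and differed little between genotypes. Csf1r had 11.07, 10.97 and 11.16 in KO cells after LPS, against 11.21, 11.58 and 11.35 in WT cells after LPS. After vehicle it had 12.16, 12.07 and 11.81 in KO cells, against 11.99, 11.96 and 12.02 in WT cells. The LPS arrays were below the vehicle arrays in both genotypes, and the KO arrays were below the WT arrays after LPS. LPS lowered Csf1r by 0.95 in KO cells (-0.95 ± 0.12, adjusted p = 9.19e-06) and by 0.61 in WT cells (-0.61 ± 0.12, adjusted p = 0.000762). The KO call held in 17 of 18 alternatives and ended with arrays aligned on the hybridisation controls (-0.62, adjusted p = 0.194). The responses differed by -0.34 ± 0.17, with an interval of -0.70 to 0.02 (adjusted p = 0.453), and the genotypes after LPS by -0.32 ± 0.12 (adjusted p = 0.147).

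Csf2rb, the common beta chain, had 11.20, 11.02 and 11.43 in KO cells after LPS, against 11.22, 11.26 and 10.95 in WT cells after LPS, which overlap. Between genotypes after LPS the difference was 0.07 ± 0.14, with a 95% interval of -0.23 to 0.38 (adjusted p = 0.851). LPS raised it by 0.44 ± 0.14 over vehicle in KO cells (adjusted p = 0.0236), and the value of 0.38 ± 0.14 in WT cells missed the threshold (adjusted p = 0.0547). Of its other probe sets, 1450200_PM_s_at rose by 0.83 in KO cells (adjusted p = 0.000631) and by 1.01 in WT cells (adjusted p = 0.000114), while 1421326_PM_at did not pass, at 0.13 in KO cells (adjusted p = 0.692) and 0.36 in WT cells (adjusted p = 0.186). For the brightest probe set the KO call ended without KO replicate 2 (0.52, adjusted p = 0.0557), without KO replicate 3 (0.27, adjusted p = 0.259) and without the KO vehicle array of replicate 3 (0.38, adjusted p = 0.0881). It also ended with arrays aligned on the hybridisation controls (0.85, adjusted p = 0.0565) and in a fit of the compared groups alone (0.44, adjusted p = 0.0679). The WT value passed in 6 of 18 alternatives.

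Csf2rb2, the IL-3 beta chain, had 10.21, 9.88 and 10.04 in KO cells after LPS, against 10.49, 10.60 and 10.32 in WT cells after LPS. Every KO array was below every WT array there, although the difference of -0.43 ± 0.15 did not pass (adjusted p = 0.128). With LPS it changed by -0.09 ± 0.15 in KO cells (adjusted p = 0.731) and rose by 0.49 ± 0.15 in WT cells (adjusted p = 0.0204). The test of the difference between these responses gave -0.58 ± 0.22, with an interval of -1.04 to -0.12 (adjusted p = 0.27). The WT call ended without WT replicate 1 (0.50, adjusted p = 0.0853) and without WT replicate 2 (0.41, adjusted p = 0.114). It also ended on the values as deposited, without scaling between arrays (0.21, adjusted p = 0.451), and with arrays aligned on the hybridisation controls (0.22, adjusted p = 0.638). Csf2rb and Csf2rb2 are close paralogs, so some of the signal of either could come from the other.

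**Figure D3:**
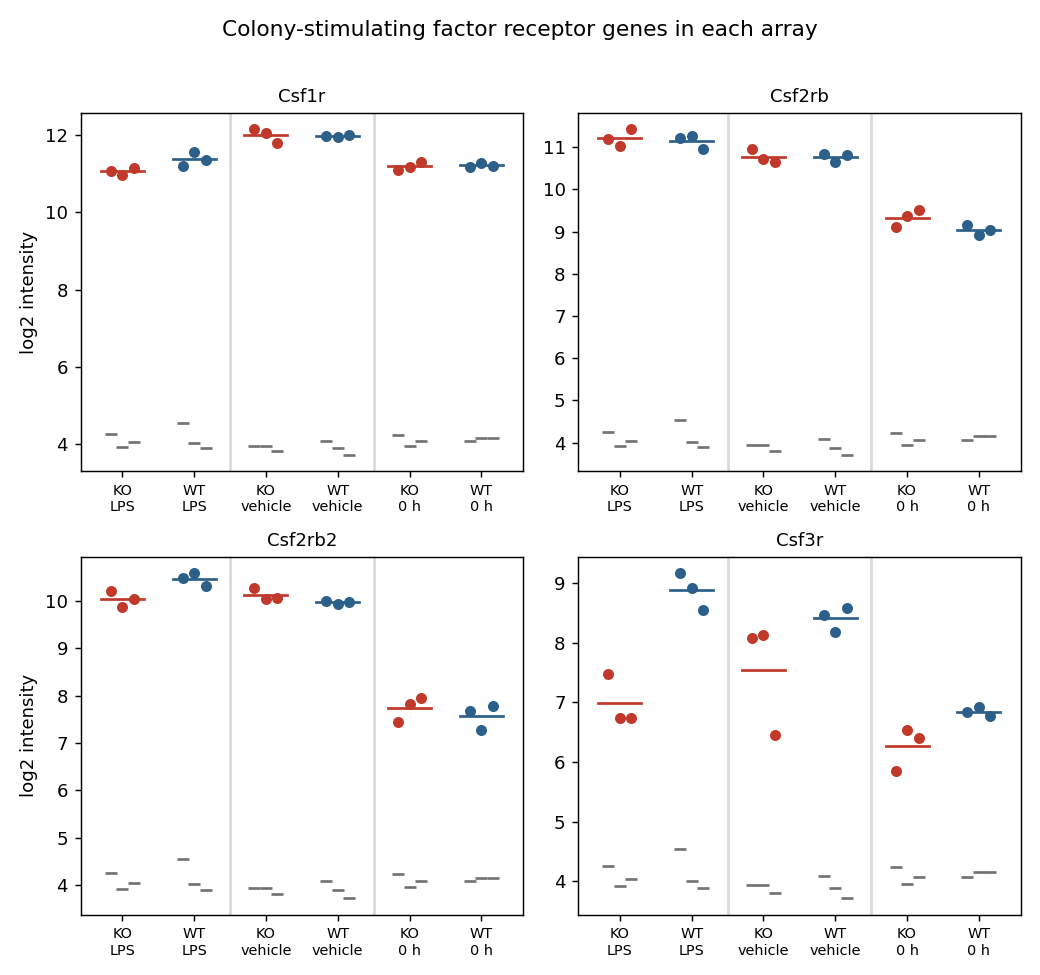
Log2 intensity (vertical axis) of the receptor genes Csf1r, Csf2rb, Csf2rb2 and Csf3r in each of the 18 arrays, by group (horizontal axis). Points are arrays, coloured bars are group means and grey dashes are each array's background level. Every array is above background; the KO arrays of Csf3r lie below its WT arrays in each condition, and the 0 h arrays of Csf2rb and Csf2rb2 are the lowest of those genes.

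Counted over the members, LPS against vehicle gave 4 higher and 1 lower in KO cells (Csf1, Csf2, Csf3 and Csf2rb higher, Csf1r lower), where 13.9% of all genes were higher and 20.6% lower. In WT cells it gave 3 higher and 1 lower (Csf1, Csf3 and Csf2rb2 higher, Csf1r lower), against 13.7% and 18.7% of all genes, with Csf2 below background in both groups.

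Vehicle against 0 h compares cells 8 h after the conditioned medium was removed with cells taken at its removal. Time, the loss of M-CSF and of the rest of that medium, the vehicle and the plate row cannot be told apart in it. All 4 measured receptor genes were higher after vehicle in both genotypes, against 6.76% of all genes higher in KO cells and 7.16% in WT cells, and no ligand gene passed in either. Of the ligand genes, however, Csf2 was above background in none of these arrays and Csf3 in 1 WT vehicle array only. Csf2rb2 had 10.27, 10.04 and 10.07 after vehicle in KO cells, against 7.45, 7.83 and 7.96 at 0 h, and 10.01, 9.93 and 9.98 after vehicle in WT cells, against 7.68, 7.28 and 7.78 at 0 h. Its vehicle arrays were far above its 0 h arrays in both genotypes: 5.21-fold in KO cells (2.38 ± 0.15, adjusted p = 1.74e-07) and 5.27-fold in WT cells (2.40 ± 0.15, adjusted p = 1.99e-07).

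Csf2rb had 10.96, 10.72 and 10.64 after vehicle in KO cells, against 9.11, 9.37 and 9.51 at 0 h, and 10.84, 10.65 and 10.81 after vehicle in WT cells, against 9.17, 8.92 and 9.05 at 0 h. It was 2.72-fold higher in KO cells (1.44 ± 0.14, adjusted p = 1.25e-05) and 3.3-fold higher in WT cells (1.72 ± 0.14, adjusted p = 2.47e-06). Its other two probe sets also rose in both genotypes, by 1.26 and 0.91 in KO cells and by 1.61 and 0.86 in WT cells. One of these, 1450200_PM_s_at, carries a suffix for probes shared by related transcripts.

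Csf1r had 11.10, 11.18 and 11.30 at 0 h in KO cells and 11.19, 11.28 and 11.20 at 0 h in WT cells, below all vehicle arrays given above. It rose by 0.82 ± 0.12 in KO cells (adjusted p = 0.00032) and by 0.77 ± 0.12 in WT cells (adjusted p = 0.000455). On the values as deposited, without scaling between arrays, both changes missed the threshold (0.54, adjusted p = 0.0935 in KO cells, and 0.56, adjusted p = 0.0857 in WT cells). Csf3r rose by 1.29 ± 0.35 in KO cells (adjusted p = 0.022) and by 1.57 ± 0.35 in WT cells (adjusted p = 0.00573). In KO cells its vehicle and 0 h arrays overlapped through the array at 6.45, without which the rise was 1.84 (adjusted p = 0.000195), and the call ended without KO replicate 1 (0.82, adjusted p = 0.293) or 2 (1.14, adjusted p = 0.138). It also ended with arrays aligned on the median (1.03, adjusted p = 0.0618), on the deposited values (0.99, adjusted p = 0.0963), with arrays aligned on the hybridisation controls (0.98, adjusted p = 0.105) and in a fit of those 2 groups alone (adjusted p = 0.11). In WT cells it ended without WT replicate 1 (1.53, adjusted p = 0.0571) or 3 (1.45, adjusted p = 0.0766).

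**Figure D4:**
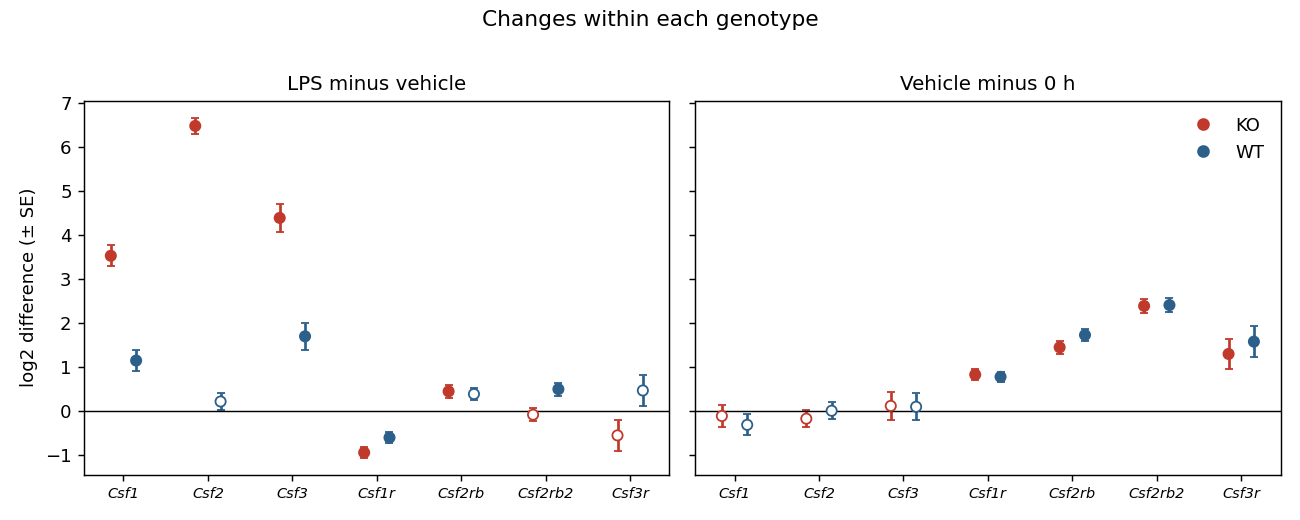
Log2 differences (vertical axis) of the 7 measured genes (horizontal axis) with LPS against vehicle and with vehicle against 0 h, in KO and WT cells. Points are fitted differences with standard errors as lines, filled where the threshold was passed and open where it was not. In KO cells the ligand genes move most with LPS, by 6.47, 4.38 and 3.52 for Csf2, Csf3 and Csf1. Of the receptor genes, Csf1r also changes with LPS, by -0.95 in KO and -0.61 in WT cells. Csf2rb passes with LPS in KO cells (0.44) and Csf2rb2 in WT cells (0.49). All 4 receptor genes rise with the 8 h of vehicle, up to 2.38 in KO and 2.40 in WT cells for Csf2rb2. For LPS against vehicle, Csf2 was below background in both WT groups.

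Without LPS no member passed the threshold between genotypes. In limma's test 0 of 7 members differed after vehicle, where 0% of all genes were called, and 0 of 7 at 0 h, where 0.14% were. Csf2 was below background in every array of both conditions and Csf3 in every array at 0 h, so no difference could be measured for them there. Klf3 itself missed the threshold in this test (adjusted p = 0.0529 after vehicle and 0.185 at 0 h). These counts therefore do not show that the genotypes were alike. At an unadjusted limma p under 0.05, 1 member differed after vehicle (Csf3r) and 0 at 0 h. The change with vehicle also passed for 0 members when compared between genotypes (0% of all genes), and for Csf3r the difference was -0.28 ± 0.49 (adjusted p = 0.999), or 0.27 without the KO vehicle array of replicate 3.

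Genes further along these pathways were taken from lists made for the factors' known effects. The lists were drawn up with results of these data known, so their counts are no independent evidence. Of 15 genes known to respond to GM-CSF 14 were measured, and 5 were higher and 0 lower in KO cells after LPS, where 2.82% of all genes were higher and 3.15% lower, with a list median of 0.75 against -0.02 over all genes (log2). The 4 with the greatest differences were Inhba, a subunit of activin (3.34 ± 0.39, adjusted p = 8.11e-05), Ccl22 (3.21 ± 0.20, adjusted p = 1.1e-07), Cish (2.96 ± 0.17, adjusted p = 4.21e-08) and Ccl17 (2.21 ± 0.16, adjusted p = 8.11e-07). Ccl17 and Ccl22 are chemokines that draw cells bearing CCR4, and Cish is a STAT5 target that restrains cytokine signalling. The same 4 genes had a larger LPS response in KO cells, by 3.72, 3.13, 2.80 and 2.12, and no list gene had a smaller one, against 0.515% and 0.591% of all genes. Each of these 4 genes kept both calls in all 18 alternatives run. Between genotypes 0 of the 14 passed after vehicle or at 0 h, where 0% and 0.14% of all genes did. At an unadjusted limma p under 0.05, 0 differed after vehicle and 1 at 0 h. In each of these conditions 3 of the 14 were below background in every array.

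Of 21 inhibitors of CSF receptor signalling, a list that also holds Cish, 3 were higher and 1 lower in KO cells after LPS (2.82% and 3.15% of all genes). The other two higher ones were Socs2 (2.77 ± 0.37, adjusted p = 0.000259), a SOCS protein, and Spry1 (1.34 ± 0.19, adjusted p = 0.000441), a Sprouty protein that limits receptor tyrosine kinase signals. The lower one was Inpp5d (-0.88 ± 0.24, adjusted p = 0.0365), the phosphatase SHIP1, whose call ended in 9 of 18 alternatives, with values of -0.52 without WT replicate 2 and -1.25 without WT replicate 3. The LPS response itself was also larger for Cish, Socs2 and Spry1, by 2.80, 2.56 and 1.35, although this call ended in 7 of 18 alternatives for Socs2 and in 6 for Spry1. Socs3, which restrains the G-CSF receptor, rose with LPS in both genotypes, by 6.23 ± 0.22 in KO and 6.80 ± 0.22 in WT cells (adjusted p = 5.13e-12 and 2.41e-12).

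Among 23 measured genes of receptor-proximal signalling, 1 was higher and 3 were lower in KO cells after LPS, against 2.82% and 3.15% of all genes. Gab3, an adaptor of the M-CSF receptor, was 5.25-fold lower (-2.39 ± 0.23, adjusted p = 1.54e-05), and its fall with LPS was greater in KO cells, -3.35 ± 0.23, against -1.38 ± 0.23 in WT cells (difference -1.97 ± 0.33, adjusted p = 0.00573, a call that ended in 5 of 18 alternatives). Jak3 was lower as well (-0.94 ± 0.16, adjusted p = 0.00236), as was Pik3cd (-0.80 ± 0.15, adjusted p = 0.00447), while Pik3r1 was higher (0.58 ± 0.13, adjusted p = 0.0141). These calls ended in 3 alternatives for Jak3 and in 4 each for Pik3cd and Pik3r1. Jak2, the kinase bound to the common beta chain, rose with LPS by 2.97 ± 0.15 in KO and 2.99 ± 0.15 in WT cells (adjusted p = 3.91e-10 and 4.81e-10).

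Among 23 measured regulators of Csf2 and Csf3 transcription and mRNA decay, 4 were higher and 0 lower in KO cells after LPS, against 2.82% and 3.15% of all genes. In a fit of those 2 groups alone the count was 0, and each of the 4 calls ended in 3 to 6 of 18 alternatives. These were the NF-kB subunit genes Rel (0.95 ± 0.20, adjusted p = 0.00943) and Nfkb2 (0.77 ± 0.20, adjusted p = 0.0285), the NF-kB cofactor gene Nfkbiz (0.91 ± 0.21, adjusted p = 0.015) and Zc3h12a (0.90 ± 0.20, adjusted p = 0.0128), whose protein Regnase-1 degrades cytokine mRNAs. Nfkbiz alone of the list had a larger LPS response in KO cells (1.39 ± 0.29, adjusted p = 0.0279), a call that ended in 6 alternatives. Of 13 measured cytokine and receptor genes related to the CSF families, 6 of them below background in both LPS groups, Kitl (2.23 ± 0.51, adjusted p = 0.015) and Il15 (1.12 ± 0.28, adjusted p = 0.0261) were higher in KO cells after LPS. For both genes the KO and WT arrays overlapped and the call ended in 5 of 18 alternatives. Kitl ran from 1.51 with all its probe sets averaged to 3.07 without WT replicate 1. Il15 ran from 0.83 without WT replicate 2 to 1.60 without WT replicate 1.

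For the 16 genes known to respond to M-CSF, all measured, vehicle against 0 h gave 3 higher and 10 lower in KO cells, with a median of -1.45, and 4 higher and 9 lower in WT cells, with a median of -1.26. Over all genes these medians were -0.01 and 0.00 to 2 decimals. Of all genes, 6.76% were higher and 5.79% lower in KO cells, and 7.16% were higher and 7.01% lower in WT cells. Ccnd1, the gene of cyclin D1, fell most, by 5.17 in KO cells (adjusted p = 8.3e-05) and by 5.04 in WT cells (adjusted p = 9.55e-05). Etv5 fell by 3.89 and 3.37 and Ccnd2 by 3.64 and 3.22 in KO and WT cells. Between genotypes the list passed at no gene for this change in limma's adjusted test, where 0% of all genes did, and 1 gene had an unadjusted p under 0.05. After LPS, Egr2 (2.03 ± 0.44, adjusted p = 0.0117) and Cebpa (0.67 ± 0.18, adjusted p = 0.0332) were higher and Fos (-1.25 ± 0.29, adjusted p = 0.0171) and Itga9 (-0.93 ± 0.17, adjusted p = 0.00343) lower in KO cells. Each of these calls ended in 3 to 6 of 18 alternatives.

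The genes whose pattern over the 18 arrays was most like each member's are given by Pearson's r among 10334 genes above background in at least 3 arrays. These arrays share the 6 groups, so r mostly reflects group means and is a description. The nearest to Csf2 were Adamts4 (0.986), Cish (0.981) and Lif (0.981), and the nearest to Csf1 were Selenos (0.972), Cx3cl1 (0.972) and Ttc19 (0.970). Csf3 was nearest to Appl1 (0.981), Bco2 (0.979) and Cxcl5 (0.977). Among the receptor genes, Csf2rb had Csf2rb2 as its nearest gene (0.977), and Csf2rb2 had Smad6 (0.987), Tgm2 (0.982) and Golga1 (0.981). Csf1r was nearest to Cggbp1 (0.987), Psen2 (0.970) and Csnk1d (0.967). Csf3r had the weakest likeness, with Sorl1 (0.902), Hexim1 (0.895) and Narf (0.888).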

How the data were processed

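RNA of 18 macrophage samples was hybridised to 1 Affymetrix mouse array each. The authors deposited 1 linear intensity for each probe set in each array. Partek was used, per the submitters' processing notes, and its version, background correction and scaling are unstated there. The array medians of the deposited values ran from 11.4 to 18.6. The planned analysis had assumed log2 values already normalized between arrays, so a log2 transform and quantile normalization came before any test, a departure made after seeing the values.

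Of 45141 probe sets 104 controls were left out; 28898 had 1 gene symbol in the platform annotation, 551 several and 15588 none. The probe set with the highest mean stood for each of 17097 genes, and every probe set of a member was also tested among all 45037. limma 3.58.1 (lmFit and eBayes) in R 4.3.3 fitted all 18 arrays with a mean for each group, and p-values were Benjamini-Hochberg adjusted. Where no array of the dimmer group exceeded the nonspecific control level, a fold is "at least", against that level. The number of arrays limits the precision; no depth applies. The fit was tested on simulated data.

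The members, lists, control level and naming rules were chosen with earlier results of these data known. Named genes are the members, Klf3, up to 4 genes per list and comparison with the greatest differences past the threshold, and the 3 genes most like each member. Marker genes named outside that rule were chosen after their values were seen. Alternatives were other scalings, handling of low values, probe set rules, fits on fewer groups, blocks and left-out replicates. Replicate numbers were checked for pairing as the correlation of deviations from group means over 14141 probe sets. It was over 0.1 for every number in LPS against vehicle in WT cells (0.37, 0.17 and 0.16) and in KO against WT cells at 0 h (0.13, 0.29 and 0.17), and not in the other comparisons; in LPS against vehicle in KO cells it was 0.06, -0.03 and -0.06. The labels do not say what a number marks.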

Additional observations from a re-analysis of the deposited data

Results flagged for a closer look

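The LPS response differed between genotypes by the interaction test for the 3 ligand genes, being larger in KO than in WT cells. The difference of the log2 responses was 2.37 for Csf1, 6.26 for Csf2 and 2.69 for Csf3. The Csf1 difference came from 2 of its 4 probe sets, Csf2 had no measured response in WT cells, and the Csf3 difference missed the threshold without KO replicate 3.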

How the results depend on the processing

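The member differences that the text gives from the gene table were recomputed under 18 alternatives, and 630 of the 684 resulting values kept their direction and their side of the threshold. The replicate block, with values of 6.26 for Csf2 and 2.37 for Csf1 in the difference of responses, changed no call of a member; the larger response of Socs2 missed the threshold with it (2.56, adjusted p = 0.0691).

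The count of members changed by LPS in KO cells was 5, and 3 with arrays aligned on the hybridisation controls. In WT cells it was 4, and 2 both on the values as deposited and on the hybridisation controls. For vehicle against 0 h in KO cells it was 4, with 2 on the deposited values and 1 on the hybridisation controls. Leaving out a replicate gave 4 to 5, 3 to 5 and 3 to 4 for these, 2 to 4 for the difference of responses, and 4 for KO against WT after LPS.

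Values that did not pass the threshold changed sign as follows. Csf2rb2 with LPS in KO cells was 0.26 with arrays aligned on the median, 0.14 on deposited values and 0.19 on hybridisation controls. On deposited values and hybridisation controls Csf3r with LPS in WT cells was -0.10 and -0.09, and the Csf1r difference of responses 0.13 and 0.17; Csf1r between genotypes after LPS was 0.06 on hybridisation controls. The mean of all Csf2rb probe sets gave -0.12 for the difference of responses and -0.06 between genotypes after LPS. Leaving out a replicate gave -0.11 to 0.18 and -0.03 to 0.17 for those 2 Csf2rb values, and -0.75 to 0.34 for the Csf3r difference in the change with vehicle. The cause of these changes was not tested.

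The scaling moved all genes. After LPS, KO against WT gave 482 higher and 538 lower genes, against 514 and 235 on the median, 1238 and 129 on deposited values and 533 and 73 on hybridisation controls, with a median shift of 0.29 on deposited values. For LPS in WT cells it gave 2336 and 3191, against 1580 and 3866 on the median, 743 and 6702 on deposited values (median shift -0.44) and 611 and 4565 on hybridisation controls. The difference of responses gave 88 and 101, against 145 and 42, 278 and 16, and 120 and 12 in the same order. Vehicle against 0 h gave 1155 and 990 in KO cells, against 338 and 2047, 199 and 1559, and 113 and 662, and in WT cells 1225 and 1198, against 466 and 1411, 222 and 1465, and 165 and 545. Csf1 with LPS in WT cells was 0.40 on deposited values (adjusted p = 0.261). Inhibitors past the threshold in KO against WT cells after LPS numbered 4, and 1 to 8 over the alternatives, and the regulators 4, and 0 to 7. Their differences of responses numbered 3, and 1 to 4, and 1, and 0 to 2.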
